A study of Mus musculus with 12 samples.

Results

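Pparg and 6 genes best known from fat cells, Adipoq, Cfd, Lipe, Plin1, Fabp4 and Retn, were followed through liver RNA of mice with and without Mlkl on a high-fat diet and on chow. The 7 genes were chosen by name. Each of the 7 symbols mapped to 1 Ensembl gene among the 51912 genes of the count table, and all 7 were among the 18098 genes that passed a filter on low counts and were tested. Adipoq, Plin1 and Retn passed that filter through few libraries, so the number of members that passed is no result.

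The study sequenced the 3′ ends of polyadenylated RNA from 12 mouse livers, 3 in each of 4 groups. The groups were Mlkl-/- mice on a high-fat diet (HFD), wild-type (WT) mice on HFD, Mlkl-/- mice on normal chow (ND) and WT mice on ND. Mice started their diet at 8 to 9 weeks of age, the HFD held 36% fat by the design text and drew 59% of its energy from lipid, and livers were taken from fed animals picked for organ weights near the mean. The sample labels give 25 weeks of diet for every animal, while the design text gives 16 to 25 weeks. Mlkl encodes a pseudokinase that ruptures the cell membrane in necroptosis, and the labels name no tissue-specific allele, no strain and no sex. The question put to the 7 genes was whether the adipocyte genes follow Pparg or follow single libraries.

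PPARG is a nuclear receptor that pairs with RXR, binds fatty acid ligands and drives the formation of adipocytes. In mouse liver it is present at a low level and is known to rise in fatty liver, where it turns on genes for fat uptake and lipid droplets. Adiponectin (Adipoq), adipsin (Cfd), resistin (Retn) and the droplet coat perilipin 1 (Plin1) are made mainly by adipocytes. Hormone-sensitive lipase (Lipe) and the fatty acid carrier Fabp4 are strong in adipocytes but are also made by other cells, Fabp4 by macrophages and endothelium.

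On the GRCm38.p6 (mm10) build, GENCODE M21 places Pparg at chr6:115360951-115490399 on the plus strand, Adipoq at chr16:23146536-23158028 on the plus strand and Cfd at chr10:79890853-79892655 on the plus strand. Lipe lies at chr7:25379527-25398710 and Plin1 at chr7:79720218-79732903, both on the minus strand of chromosome 7. Fabp4 lies at chr3:10204088-10208576 on the minus strand and Retn at chr8:3655770-3660110 on the plus strand. RefSeq start-site windows of 250 bases before to 50 bases after the start were at hand for 6 of the 7 members, all but Fabp4. They are shown for Pparg and for 4 adipocyte markers, because Pparg and these markers were not ordered alike over the libraries. Capitals mark the motifs AGGTCA (the core motif of nuclear receptors), GGGCGG (the GC box), CCAAT (the CCAAT box), TATAAA (the TATA box) and TTGCNNAA (a C/EBP-type pattern), each searched on both strands. Windows are written 5′ to 3′ on the gene's strand.
Pparg start 1, chr6:115360894-115361193, plus: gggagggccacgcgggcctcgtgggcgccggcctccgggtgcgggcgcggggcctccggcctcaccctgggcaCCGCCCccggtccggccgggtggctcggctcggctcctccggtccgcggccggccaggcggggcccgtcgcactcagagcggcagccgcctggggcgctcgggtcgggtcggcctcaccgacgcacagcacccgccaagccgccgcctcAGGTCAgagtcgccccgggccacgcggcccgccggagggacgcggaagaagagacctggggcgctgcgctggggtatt
Pparg start 3, chr6:115421816-115422115, plus: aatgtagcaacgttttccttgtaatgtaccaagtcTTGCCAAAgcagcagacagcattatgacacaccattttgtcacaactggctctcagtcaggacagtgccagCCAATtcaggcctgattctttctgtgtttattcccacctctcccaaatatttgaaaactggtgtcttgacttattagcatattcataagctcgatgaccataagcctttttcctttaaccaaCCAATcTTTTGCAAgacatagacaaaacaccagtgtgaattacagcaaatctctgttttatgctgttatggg
Adipoq, chr16:23146286-23146585, plus: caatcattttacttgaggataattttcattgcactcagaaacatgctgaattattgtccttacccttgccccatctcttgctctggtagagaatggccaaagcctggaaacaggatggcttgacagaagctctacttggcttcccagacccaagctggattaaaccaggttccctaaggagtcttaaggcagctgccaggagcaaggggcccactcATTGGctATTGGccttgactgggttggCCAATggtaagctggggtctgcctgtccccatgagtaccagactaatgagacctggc
Cfd, chr10:79890603-79890902, plus: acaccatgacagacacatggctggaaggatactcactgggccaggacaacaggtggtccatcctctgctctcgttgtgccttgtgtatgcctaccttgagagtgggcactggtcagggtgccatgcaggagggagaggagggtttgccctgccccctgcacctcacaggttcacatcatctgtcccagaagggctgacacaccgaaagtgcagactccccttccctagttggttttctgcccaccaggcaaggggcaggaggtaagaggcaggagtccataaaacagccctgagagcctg
Plin1, chr7:79732727-79733026, minus: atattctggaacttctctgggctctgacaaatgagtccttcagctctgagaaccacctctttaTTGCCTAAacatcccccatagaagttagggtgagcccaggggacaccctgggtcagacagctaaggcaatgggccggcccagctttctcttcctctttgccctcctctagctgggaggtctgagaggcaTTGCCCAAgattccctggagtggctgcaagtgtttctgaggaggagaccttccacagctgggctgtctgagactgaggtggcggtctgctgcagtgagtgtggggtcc
Retn, chr8:3655520-3655819, plus: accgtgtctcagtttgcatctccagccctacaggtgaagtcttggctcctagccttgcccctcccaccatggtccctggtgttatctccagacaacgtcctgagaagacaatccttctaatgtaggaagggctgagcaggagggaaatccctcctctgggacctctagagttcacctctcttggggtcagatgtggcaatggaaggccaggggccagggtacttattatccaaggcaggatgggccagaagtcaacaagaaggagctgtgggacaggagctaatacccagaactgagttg

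A direct repeat of AGGTCA with any 1 base between its 2 copies, the element that PPARG and RXR bind as a pair, was found in no window of the 6 members, beside 0.0396% of the 32851 windows of all genes. The looser form, with AGGNCA in place of each copy, was also in none of them, beside 0.381% of all windows. AGGTCA alone stood in Pparg start 1 and in Pparg start 2 (chr6:115362099-115362398, not shown), and 16.3% of all windows hold it. CCAAT stood 3 times in the Adipoq window and 2 times at Pparg start 3, beside 37.4% of all windows with at least 1. TTGCNNAA stood 2 times each in the Plin1 window and at Pparg start 3, beside 10.8% of all windows. The Cfd and Retn windows held none of the 7 motifs. These are matches of letters only, and reads from the 3′ end cannot tell which Pparg start a transcript came from.

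Library totals ran from 19435391 to 32120426 counts. The label of the deleted gene was checked first: Mlkl had 9 to 34 counts in the 6 Mlkl-/- libraries and 72 to 252 counts in the 6 WT libraries. Summed hepatocyte markers (10 genes, albumin among them) ran from 64167 to 117278 counts per 1000000 (CPM, on TMM-scaled library sizes) over all 12 libraries, with none of them at 0 in any group. Some libraries also carried skeletal muscle transcripts. The 12 skeletal muscle genes of a list made after the values were seen summed to 533 CPM in Mlkl-/- HFD replicate 2, against 12.6 CPM in WT HFD replicate 3, 6.65 CPM in WT HFD replicate 2 and 1.38 to 3.67 CPM in the other 9 libraries. Muscle creatine kinase (Ckm) had 1202 counts in Mlkl-/- HFD replicate 2, 19 counts in each of WT HFD replicates 2 and 3, and 0 to 3 counts elsewhere. The members' calls in the diet comparisons are given with and without these 3 libraries, whereas shares, correlations and permutation tests include them.

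Pparg itself was highest in WT HFD livers. It stood at 8.06, 4.67 and 8.65 CPM in the 3 Mlkl-/- HFD libraries, 16.7, 24.1 and 13.0 CPM in WT HFD, 6.43, 3.90 and 2.65 CPM in Mlkl-/- ND, and 9.14, 6.09 and 8.15 CPM in WT ND. All 3 WT HFD libraries lay above the 9 others, and the other 3 groups overlapped one another in part. By group mean the order was WT HFD (17.9 ± 5.63 CPM), WT ND (7.80 ± 1.56), Mlkl-/- HFD (7.13 ± 2.15) and Mlkl-/- ND (4.33 ± 1.93, SD, n = 3 each). The neighbours WT ND and Mlkl-/- HFD overlapped within their spread.

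Lipe, the lipase that splits diacylglycerol, was the member with the most even diet difference. It stood at 24.0, 17.3 and 18.6 CPM in Mlkl-/- HFD, 18.0, 20.5 and 30.2 CPM in WT HFD, 11.6, 7.80 and 6.91 CPM in Mlkl-/- ND, and 10.4, 11.5 and 8.45 CPM in WT ND. Every HFD library lay above every ND library, and the genotypes overlapped on both diets. Group means were 20.0 ± 3.58 CPM in Mlkl-/- HFD, 22.9 ± 6.46 in WT HFD, 8.77 ± 2.49 in Mlkl-/- ND and 10.1 ± 1.54 in WT ND (SD, n = 3 each). Lipe shares exon sequence with 4732471J01Rik on the opposite strand. That gene had 108 to 245 counts in the HFD libraries and 64 to 86 counts in the ND libraries, so its diets did not overlap either. Without a stated strand setting reads of the pair cannot be told apart, and the part of this gene in the Lipe difference was not tested.

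Fabp4 went its own way. It stood at 6.25, 12.5 and 12.9 CPM in Mlkl-/- HFD, 19.1, 26.6 and 21.4 CPM in WT HFD, 29.7, 13.2 and 13.6 CPM in Mlkl-/- ND, and 11.0, 13.7 and 10.5 CPM in WT ND. The highest value of all was Mlkl-/- ND replicate 1, and the WT HFD libraries lay above the other 8. Means were 10.5 ± 3.71 CPM in Mlkl-/- HFD, 22.4 ± 3.83 in WT HFD, 18.8 ± 9.41 in Mlkl-/- ND and 11.7 ± 1.75 in WT ND (SD, n = 3 each).

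Adipoq, the adipocyte hormone adiponectin, was near the detection limit in most livers and high in a few. It had 5, 24 and 17 counts in Mlkl-/- HFD, 2, 103 and 69 counts in WT HFD, 1, 1 and 5 counts in Mlkl-/- ND, and 4, 11 and 8 counts in WT ND. Replicates 2 and 3 of each HFD group were the 4 highest of the 12 libraries, while WT HFD replicate 1 had fewer counts than any WT ND library. These 4 libraries held 84.0% of all Adipoq CPM. Levels were 0.239, 1.15 and 0.701 CPM in Mlkl-/- HFD, 0.0801, 3.13 and 3.33 CPM in WT HFD, 0.0491, 0.0443 and 0.197 CPM in Mlkl-/- ND, and 0.171, 0.540 and 0.262 CPM in WT ND.

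Plin1, which coats the large droplet of adipocytes, had 3, 22 and 8 counts in Mlkl-/- HFD, 2, 84 and 72 counts in WT HFD, 1, 3 and 2 counts in Mlkl-/- ND, and 10, 20 and 6 counts in WT ND. WT HFD replicates 2 and 3 stood out, and WT ND replicate 2 lay close to Mlkl-/- HFD replicate 2. Resistin, a hormone of mouse adipocytes, had 0, 7 and 12 counts in Mlkl-/- HFD, 0, 14 and 20 counts in WT HFD, none in any Mlkl-/- ND library, and 2, 10 and 4 counts in WT ND. Replicate 1 of both HFD groups was at 0, which with a floor of 3 counts leaves the level in each unresolved. The same 4 libraries as for Adipoq held 78.0% of Plin1 and 75.8% of Retn CPM.

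Cfd, the protease adipsin that activates factor B, had 11, 114 and 181 counts in Mlkl-/- HFD, 13, 294 and 216 counts in WT HFD, 18, 7 and 4 counts in Mlkl-/- ND, and 111, 68 and 57 counts in WT ND. Replicate 1 of both HFD groups lay with the Mlkl-/- ND libraries, and all WT ND libraries lay above them. The 4 libraries held 72.3% of Cfd CPM, against 45.2% for Pparg, 46.7% for Lipe and 38.5% for Fabp4. Leptin (Lep), another adipocyte hormone, had 0, 10 and 8 counts in Mlkl-/- HFD, 5, 62 and 37 counts in WT HFD, 1, 3 and 1 counts in Mlkl-/- ND, and 4, 2 and 10 counts in WT ND, with 81.5% of its CPM in the same 4 libraries.

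**Figure D1:**
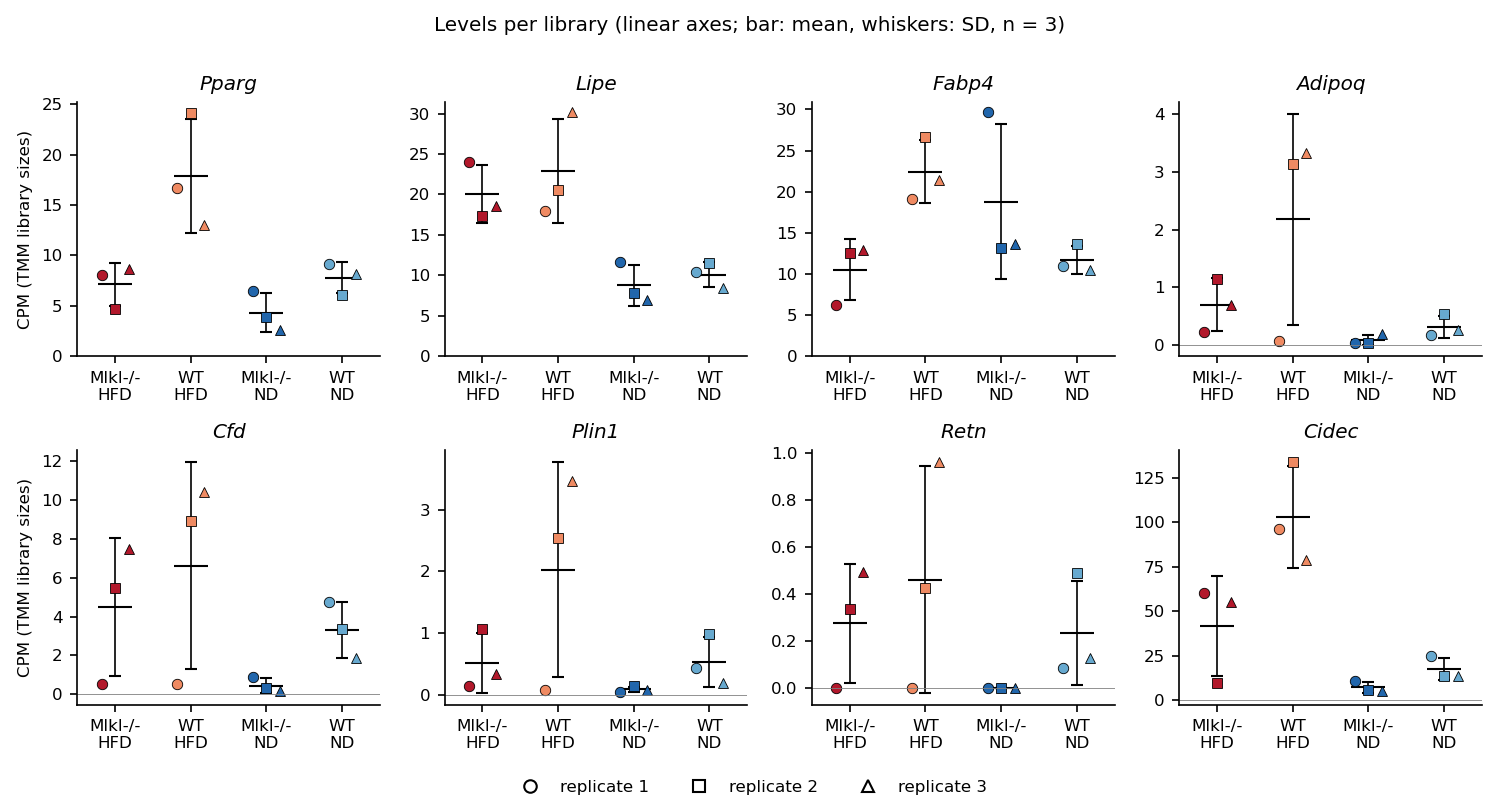
CPM on linear axes for the 7 members and Cidec in the 12 libraries, with the mean (bar) and SD (whiskers) of each group of 3; the shape of a point gives the replicate. Pparg and Cidec were highest in all 3 WT HFD libraries (13.0 to 24.1 CPM for Pparg), while Adipoq, Cfd, Plin1 and Retn were near 0 in replicate 1 of both HFD groups.

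The 4 markers Adipoq, Cfd, Plin1 and Retn together ranged from 0.906 to 8.98 CPM in Mlkl-/- HFD, 0.681 to 18.2 CPM in WT HFD, 0.434 to 0.982 CPM in Mlkl-/- ND and 2.46 to 5.43 CPM in WT ND. Whole liver RNA does not show which cells these reads came from, and fewer such cells and less RNA per cell cannot be told apart. The share of Plin1 in the counts of Plin1 and Adipoq was similar in the 4 libraries high in Adipoq. Plin1 held 47.8% (95% exact binomial interval 32.9 to 63.1%) of the pair's counts in Mlkl-/- HFD replicate 2 and 32.0% (14.9 to 53.5%) in replicate 3. In WT HFD it held 44.9% (37.7 to 52.3%) in replicate 2 and 51.1% (42.5 to 59.6%) in replicate 3. All 4 intervals overlap, and they cover counting error only. In WT ND replicate 2, with 20 counts of Plin1 and 11 of Adipoq, the share was 64.5% (45.4 to 80.8%). For Cfd the shares lay further apart: it held 91.4% (86.6 to 94.9%) of the Cfd and Adipoq counts in Mlkl-/- HFD replicate 3 and 96.5% (91.3 to 99.0%) in WT ND replicate 1, against 74.1% (69.4 to 78.3%) in WT HFD replicate 2.

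High-fat feeding in Mlkl-/- livers moved 1 of the 7 members past the threshold, Lipe, and 6 did not pass. A call is an adjusted p below 0.05 in edgeR's quasi-likelihood test over all 18098 genes, and 0.359% of all genes were called in this comparison. Lipe was higher on HFD by 1.19 ± 0.23 (log2 fold change ± SE, adjusted p = 0.0458), and this was so in all 3 Mlkl-/- HFD libraries. Pparg was at 0.73 ± 0.33 (adjusted p = 0.354), Adipoq at 2.73 ± 1.28 (0.324), Cfd at 3.36 ± 1.29 (0.293), Plin1 at 2.46 ± 1.42 (0.427) and Fabp4 at -0.84 ± 0.33 (0.287). Plin1 was at 1.42 without the muscle-bearing Mlkl-/- HFD replicate 2, and Fabp4 at -0.32 without Mlkl-/- ND replicate 1 and -0.57 without Mlkl-/- HFD replicate 1. Retn had 19 counts in Mlkl-/- HFD against none in Mlkl-/- ND, at least 6.55-fold higher against a floor of 3 counts over the group (adjusted p = 0.297). Adipoq, Lipe, Plin1 and Fabp4 had groups that did not overlap, Fabp4 with HFD lower, beside 15.5% of all genes.

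The Lipe call in Mlkl-/- livers was narrow. It ended without Mlkl-/- HFD replicate 1 (adjusted p = 0.179) or 3 (0.0694), without Mlkl-/- ND replicate 2 (0.165) or 3 (0.182), without WT HFD replicate 1 (0.0585) or 2 (0.0616), and without WT ND replicate 1 (0.0778) or 2 (0.0603). It held, at 1.29 and adjusted p = 0.0397, with the 3 libraries that carried muscle transcripts left out.

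High-fat feeding in WT livers moved Lipe and Pparg past the threshold, 2 of 7, beside 4.23% of all genes. Lipe was higher on HFD by 1.18 ± 0.23 (adjusted p = 0.0151, edgeR) and Pparg by 1.20 ± 0.32 (adjusted p = 0.0496). Adipoq was at 2.76 ± 0.95 (adjusted p = 0.123), Plin1 at 1.96 ± 0.94 (0.269), Cfd at 1.00 ± 1.02 (0.651) and Fabp4 at 0.93 ± 0.32 (0.128). Retn was at 0.99 with adjusted p = 0.695, and 1 of its 3 HFD libraries had no count. Pparg, Lipe and Fabp4 had groups that did not overlap, beside 29.1% of all genes. The groups overlapped for Adipoq, Cfd, Plin1 and Retn, and WT HFD replicate 1 lay below all 3 WT ND libraries for Adipoq, Cfd and Plin1.

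The Pparg call in WT livers sat at the threshold. It ended without WT HFD replicate 1 (adjusted p = 0.0950) or 2 (0.230), without WT ND replicate 1 (0.0938), 2 (0.182) or 3 (0.143), without Mlkl-/- HFD replicate 1 (0.0645) or 3 (0.0545), and without Mlkl-/- ND replicate 2 (0.0724). The Lipe call ended without WT HFD replicate 2 (adjusted p = 0.0557) and without WT ND replicate 1 (0.0516), 2 (0.0540) or 3 (0.0754). With the 3 muscle-bearing libraries left out, which leaves 1 WT HFD library assumed to vary like the rest, Pparg was at 1.10 (adjusted p = 0.385) and Lipe at 0.84 (0.416). In that fit Adipoq was at -1.92, Cfd at -2.65 and Plin1 at -2.63.

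**Figure D2:**
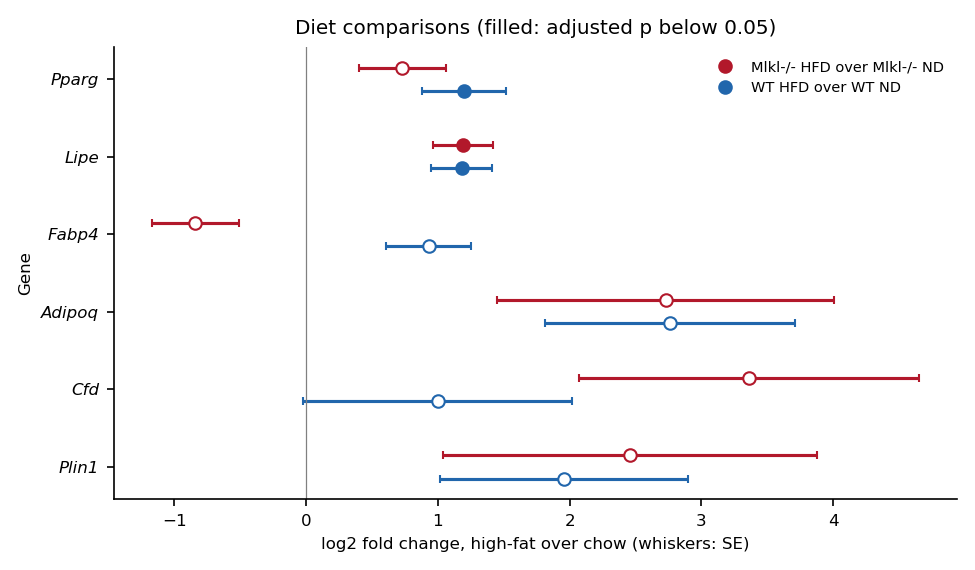
Log2 fold change, high-fat over chow, with SE, for 6 members in Mlkl-/- (red) and WT (blue) livers from edgeR; filled points have an adjusted p below 0.05. Lipe lay at 1.19 in Mlkl-/- and 1.18 in WT with SEs of 0.23, Fabp4 at -0.84 in Mlkl-/- and 0.93 in WT, and Adipoq, Cfd and Plin1 had SEs of 0.94 or more; Retn is left out because 1 group had no counts.

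Averaged over both genotypes, HFD moved Lipe, Pparg and Adipoq, 3 of 7, beside 7.19% of all genes. Lipe was higher by 1.19 ± 0.16 (adjusted p = 0.00143, edgeR), Pparg by 0.97 ± 0.23 (0.0233) and Adipoq by 2.74 ± 0.79 (0.0441). Plin1 was at 2.21 ± 0.85 (adjusted p = 0.120), Cfd at 2.18 ± 0.83 (0.154) and Fabp4 at 0.05 ± 0.23 (0.933), and Retn did not pass (0.149). Lipe was the only member whose 6 HFD and 6 ND libraries did not overlap, beside 2.59% of all genes. Its difference in mean log2 CPM was 1.18 with an exact two-sided permutation p of 0.00216, the smallest that 6 against 6 libraries allow, against 0.0476 for Adipoq (1.84) and 0.0519 for Pparg (0.96). The Lipe call held in all 12 fits that left out 1 library (adjusted p from 0.000221 to 0.00634).

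The averaged calls for Pparg and Adipoq were narrow, while their log2 fold changes stayed between 0.83 and 1.19 for Pparg and between 2.49 and 3.27 for Adipoq in the 12 fits that left out 1 library. Pparg ended without WT HFD replicate 2 (adjusted p = 0.0633), Mlkl-/- HFD replicate 1 (0.0605) or 3 (0.0610), WT ND replicate 2 (0.0609) or 3 (0.0580), or Mlkl-/- ND replicate 2 (0.0680). Adipoq kept its call without WT HFD replicate 1 (adjusted p = 0.00470) and lost it without any 1 of the other 11 libraries (0.0522 to 0.112). The Adipoq call also ended with limma-voom (2.17, adjusted p = 0.300) and with no filter on low counts (2.75, adjusted p = 0.121). With the 3 muscle-bearing libraries left out, which leaves 1 WT HFD library, Lipe was at 1.06, Pparg at 1.03 and Adipoq at 0.13. The libraries left out are the 3 highest of 12 in Adipoq, at 1.15, 3.13 and 3.33 CPM. The WT HFD library that remains had 0.0801 CPM. The Adipoq value of this fit therefore followed from which libraries were left out, and the part of muscle was not tested.

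Sample titles carry a code after the diet, of unstated meaning, which is 23 or 27 on ND and 25 or 29 on HFD. No code occurs on both diets. Here 23 and 25 were joined as a lower level and 27 and 29 as a higher level, each found in every group. Diets compared within a level therefore still differ in code, and the level as a term cannot part code from diet. Lipe was higher on HFD within each level, by 0.81 and 1.33 log2 CPM in Mlkl-/- livers and by 0.72 and 1.55 in WT livers at the lower and the higher level. Pparg differed by 1.15 and 1.11 in WT livers, and by -0.07 and 1.41 in Mlkl-/- livers. Adipoq turned direction within WT livers, at 0.0801 CPM in 1 HFD library against 0.356 CPM in 2 ND libraries at the lower level, and 3.23 CPM in 2 HFD libraries against 0.262 CPM in 1 ND library at the higher level. In Mlkl-/- livers Adipoq was higher on HFD by 2.25 and 2.05 log2 CPM. With 1 or 2 libraries a cell these differences have no test. With the code level as a term in edgeR, the Pparg call in WT livers ended (1.22, adjusted p = 0.0780), as did the Lipe call in Mlkl-/- livers (1.15, adjusted p = 0.0658).

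A summed level of 8 loci (Mir6236, Gm23935, Gm24270, Gm24187, Gm25911, Gm24245, Gm15564 and Lars2), found in earlier work on these data, also splits the libraries. It was at 3484 to 9239 raw CPM, here on library totals without TMM scaling, in 6 libraries and 378 to 656 raw CPM in the other 6. The higher level holds all 3 Mlkl-/- HFD libraries, WT HFD replicates 2 and 3 and Mlkl-/- ND replicate 1. With this level as a term, none of the 7 members was called in the diet comparisons, and Lipe was at 0.84 in Mlkl-/- livers, 0.78 in WT livers and 0.81 on average (adjusted p = 0.213, 0.0839 and 0.0564). Cfd was then at -1.91, Plin1 at -0.67 and Retn at -3.93 in WT livers. Adipoq was at 0.21 in WT livers and 0.57 on average (adjusted p = 0.959 and 0.862). All 4 libraries high in Adipoq have the higher 8-locus level, and so do Mlkl-/- HFD replicate 1 and Mlkl-/- ND replicate 1, at 0.239 and 0.0491 CPM of Adipoq. The part of this level in the diet results was not tested beyond that term.

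On HFD, Pparg and Fabp4 were lower in Mlkl-/- than in WT livers without a call. Of the 7 members 0 were called by edgeR, beside 0.0276% of all genes, and 2 had an unadjusted p below 0.05, beside 15.5% of all genes. Pparg was at -1.33 ± 0.32 (adjusted p = 0.126) and Fabp4 at -1.09 ± 0.32 (0.173), each lower in all 3 Mlkl-/- HFD libraries than in any WT HFD library, beside 21.4% of all genes whose groups did not overlap. DESeq2 called both, and limma-voom called 0 of 7. The other members lay at -0.20 for Lipe, -0.55 for Cfd, -0.67 for Retn, -1.64 for Adipoq and -1.99 for Plin1, with adjusted p from 0.336 to 0.833. With the muscle-bearing libraries left out, Pparg was at -0.99 and Fabp4 at -0.99, while Adipoq, Cfd and Plin1 turned to 2.49, 2.94 and 1.52. That fit leaves 1 WT HFD library, the lowest of its group in Adipoq, Cfd and Plin1, so these turns followed from which libraries were left out.

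On chow, all members but Fabp4 had lower means in Mlkl-/- than in WT livers, again without a call. Of the 7 members 0 were called by edgeR, DESeq2 or limma-voom, beside 0.00553% of all genes by edgeR, and 3 had an unadjusted p below 0.05, beside 5.51% of all genes. These 3 were Pparg (unadjusted p = 0.0210, edgeR), Retn (0.0402) and Cfd (0.0477). Cfd and Plin1 were lower in all 3 Mlkl-/- ND libraries than in any WT ND library, beside 10.5% of all genes. Cfd averaged 0.451 ± 0.383 CPM in Mlkl-/- ND and 3.32 ± 1.44 CPM in WT ND (SD, n = 3 each), a log2 fold change of -2.91 ± 1.30 (adjusted p = 0.900, edgeR). Plin1 was at -2.49 ± 1.41 (adjusted p = 0.925). Retn had no count in Mlkl-/- ND against 16 in WT ND, at least 4.90-fold lower against the floor of 3 counts over the group (adjusted p = 0.867). Pparg was at -0.86 ± 0.33 (0.798), Fabp4 at 0.68 ± 0.32 (0.905), Adipoq at -1.60 ± 1.33 (0.969) and Lipe at -0.21 ± 0.23 (0.982).

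No member passed edgeR's test of whether the diet difference differed between genotypes. Of all genes 0% passed, although 1889 (10.4%) had an unadjusted p below 0.05, 1 of them a member. DESeq2 called Fabp4 (adjusted p = 0.0349) and limma-voom called 0 of 7. Fabp4 came nearest, with an interaction of -1.77 ± 0.46 (adjusted p = 0.338, edgeR). Its HFD libraries lay below all ND libraries in Mlkl-/- mice and above all ND libraries in WT mice. Without Mlkl-/- ND replicate 1, the highest Fabp4 library, the interaction was smallest among the fits that left out 1 library, at -1.28. Summed macrophage markers (15 genes) were at 92.6 to 175 CPM in Mlkl-/- HFD, 183 to 302 in WT HFD, 123 to 203 in Mlkl-/- ND and 132 to 169 in WT ND. Summed endothelial markers (12 genes) were at 114 to 139 CPM in Mlkl-/- HFD, 202 to 315 in WT HFD, 134 to 212 in Mlkl-/- ND and 158 to 237 in WT ND. Both cell types make Fabp4, and their part in its levels was not tested.

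Within the HFD livers, no adipocyte gene passed the test of a relation with Pparg from library to library. Over the 6 HFD libraries Pearson's r with Pparg on log2 CPM was 0.17 for Adipoq (rho 0.14), 0.04 for Cfd (rho 0.26), 0.20 for Plin1 (rho 0.14), 0.01 for Retn (rho 0.17) and 0.21 for Lipe (rho 0.26), with exact permutation p of 0.676 to 0.992 for r. Fabp4 had r = 0.71 and rho = 0.89 (exact p for rho 0.0333, adjusted p for r 0.522), and r was 0.82 without the 2 libraries farthest from the Pparg median. Within ND, Cfd had the highest r, at 0.90 (rho 0.83, exact p = 0.0139 and 0.0583), which was 0.46 without the 2 Mlkl-/- libraries farthest from the median. None of these 12 relations passed Benjamini-Hochberg adjustment (lowest adjusted p 0.167 for r, 0.350 for rho). With 6 libraries such a p does not show that a relation is absent. Both genotypes enter each r, and the permutation does not keep them apart. Genotypes did not overlap for Pparg and Fabp4 on HFD, beside 21.4% of all genes, or for Cfd on ND, beside 10.5%. The r of Fabp4 on HFD and of Cfd on ND therefore hold the genotype difference too.

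Among themselves Adipoq, Plin1 and Cfd moved together on HFD, with Retn close by. In relations chosen after the values were seen, Adipoq had r = 0.98 with Plin1 over the 6 HFD libraries (rho 1.00, exact permutation p = 0.00417 and 0.00278), 0.91 with Cfd (rho 0.94, p = 0.00694 and 0.0167) and 0.90 with Retn (rho 0.81, p = 0.0278 and 0.0722). Adjusted over the 10 relations of this family, r with Plin1 and with Cfd passed (0.0347 each) and r with Retn did not (0.0694). Without the 2 libraries farthest from the Adipoq median r was 0.98 for Plin1, 0.83 for Cfd, 0.76 for Retn, -0.48 for Lipe and 0.98 for Fabp4. Adipoq and Lipe had r = 0.41 (rho 0.43, exact p = 0.412 and 0.419), and Adipoq and Fabp4 0.52 (rho 0.54, p = 0.292 and 0.297). On ND no relation of Adipoq passed adjustment. There r was 0.88 with Retn (adjusted permutation p = 0.0694), 0.77 with Plin1 (0.150), 0.51 with Cfd (0.437), 0.17 with Lipe and -0.49 with Fabp4. Without the 2 ND libraries farthest from the Adipoq median r was 0.65, 0.52, 0.09, -0.73 and -0.95 in that order.

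**Figure D3:**
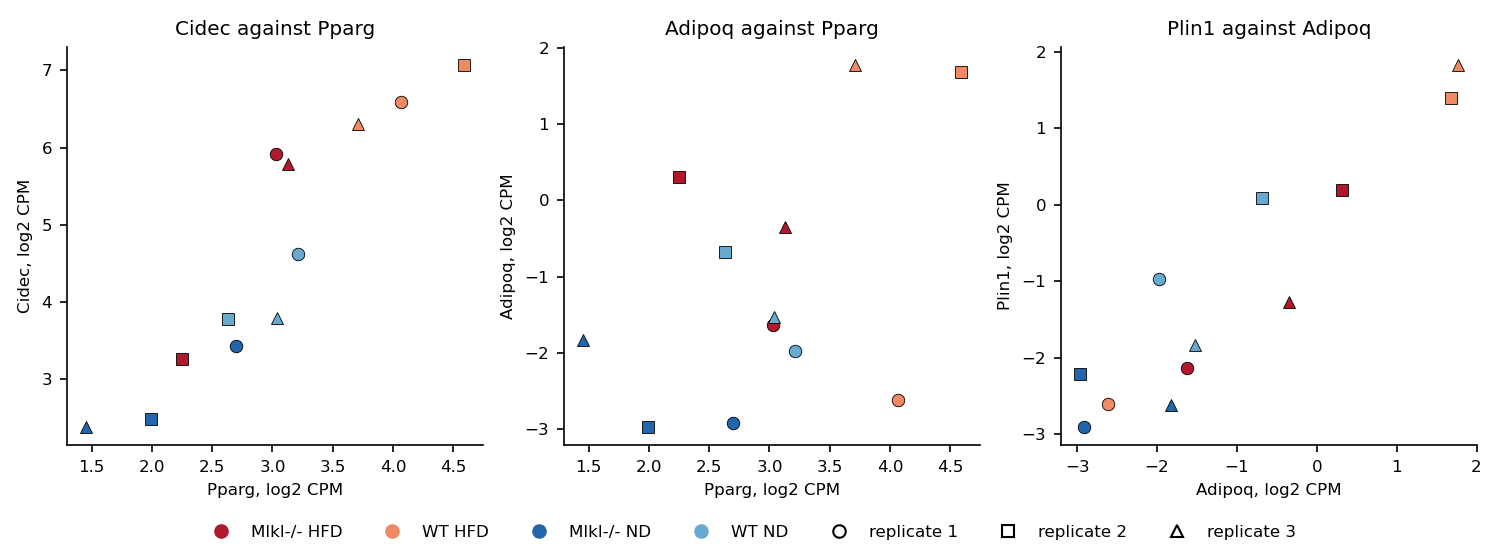
Log2 CPM of Cidec against Pparg, Adipoq against Pparg and Plin1 against Adipoq, 1 point per library, coloured by group and shaped by replicate. Over the 6 HFD libraries Cidec lay along Pparg (r = 0.91) and Plin1 along Adipoq (r = 0.98), while Adipoq against Pparg was scattered (r = 0.17).

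Some of the genes known as targets of Pparg in fatty liver did move with it on HFD. Of 14 such genes on a list, 3 of which (Cidec, Plin4 and Aqp7) are also on the adipocyte list, 9 relations of 28 over both diets passed adjustment for r, 8 of them on HFD. On ND Cidec alone passed (r = 0.94), and Cd36 had r = 0.27 there. The droplet fusion gene Cidec had r = 0.91 over the 6 HFD libraries (rho 0.94, exact permutation p = 0.00278 and 0.0167), Plin4 r = 0.97 (rho 1.00, p = 0.00417 and 0.00278), the fatty acid receptor Cd36 r = 0.96 (rho 1.00, p = 0.00139 and 0.00278) and Cidea r = 0.89 (rho 1.00, p = 0.00139 and 0.00278). For these 4 genes r had an adjusted p of 0.0194 each, and it was 0.97, 0.98, 0.92 and 0.79 without the 2 libraries farthest from the median. Other listed targets did not follow, such as lipoprotein lipase Lpl at r = 0.02 (rho -0.03, p = 0.949 and 1.00) and Angptl4 at r = -0.74 (rho -0.66, p = 0.106 and 0.175), which were 0.59 and -0.27 without those libraries. These relations were chosen after the values were seen, and since all WT HFD libraries lay above all Mlkl-/- HFD libraries in Pparg, each r holds the genotype difference too. On HFD the genotypes did not overlap for 21.4% of all genes. The share of all genes with an r this high is not given here, so the relations are not shown to be particular to targets.

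Cidec stood at 60.4, 9.48 and 55.0 CPM in Mlkl-/- HFD, 96.0, 134 and 78.7 CPM in WT HFD, 10.7, 5.49 and 5.09 CPM in Mlkl-/- ND, and 24.5, 13.6 and 13.8 CPM in WT ND. Mlkl-/- HFD replicate 2, low in Pparg and high in Adipoq, had a Cidec level in the range of ND livers. WT HFD replicate 1, high in Pparg and lowest among HFD livers in Adipoq, had 96.0 CPM of Cidec, 19.8 CPM of Cidea and 9.73 CPM of the acyltransferase Mogat1. Mlkl-/- HFD replicate 2 had 0.529 CPM each of Cidea and Mogat1. In these 2 libraries, picked after the values were seen, Cidec, Cidea and Mogat1 went with Pparg and not with Adipoq. Not all listed targets did so: in Mlkl-/- HFD replicate 2 Lpl was at 53.2 CPM, its highest level, and Pdk4 at 17.8 CPM. That library also carried 533 CPM of summed muscle genes.

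**Figure D4:**
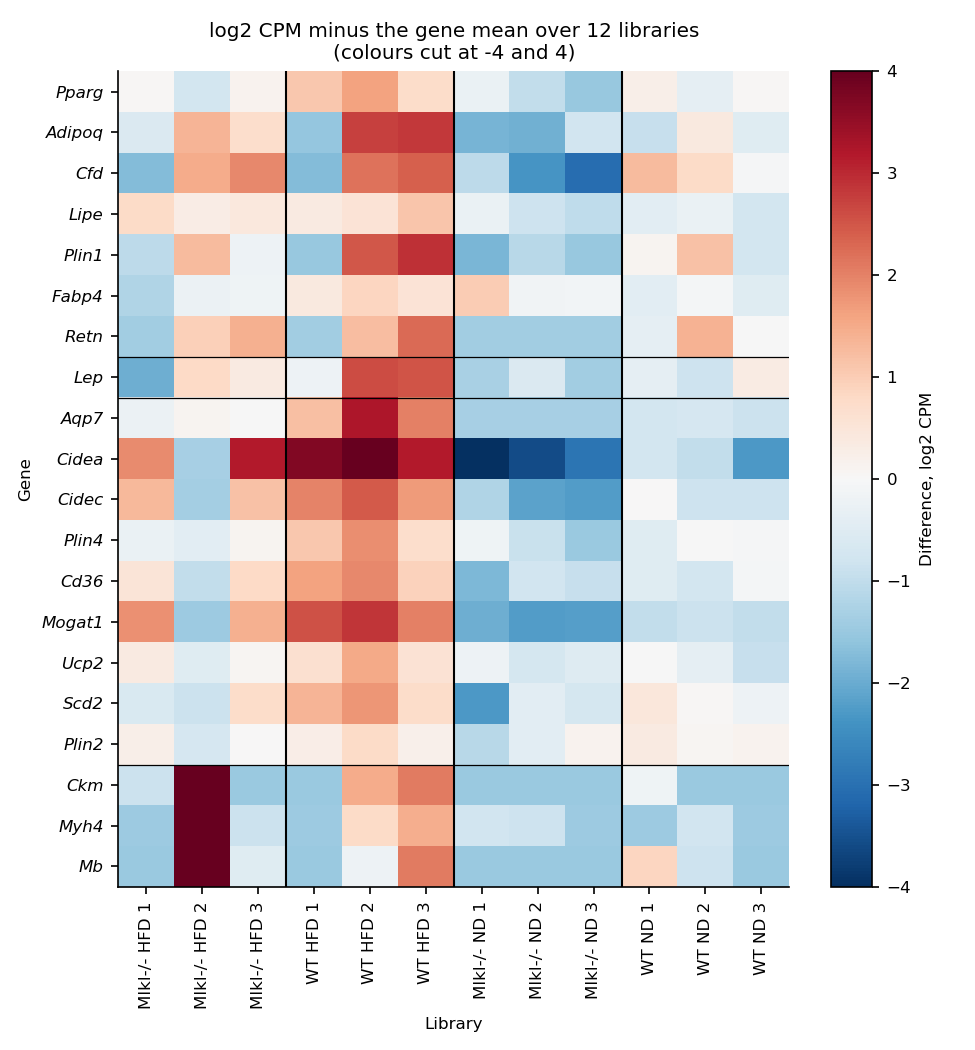
Difference of log2 CPM from each gene's mean over the 12 libraries, for the 7 members, Lep, 9 genes listed as hepatic PPARG targets and 3 muscle genes, with groups split by vertical lines. The 9 targets drawn are those with r of 0.85 or more with Pparg on HFD. The listed targets Lpl, Angptl4, Fabp5, Pdk4 and Acp5, with r from -0.76 to 0.38, are not drawn. WT HFD replicate 1 was high in Pparg (1.09) and low in Adipoq (-1.55), and Mlkl-/- HFD replicate 2 was low in Pparg (-0.73), high in Adipoq (1.37) and far the highest in the muscle genes.

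In the WT diet comparison edgeR called 6 of the 14 target genes higher and none lower, beside 4.23% of all genes called. Their median log2 fold change was 1.43 beside -0.01 over all genes tested. Cidea was at 5.16 ± 0.99 (adjusted p = 0.0264, edgeR), Mogat1 at 3.59 ± 0.59 (0.0124) and Cd36 at 1.94 ± 0.45 (0.0471), and the glycerol channel Aqp7 passed as well (0.0138). In Mlkl-/- livers 0 of 14 were called by edgeR or limma-voom and 4 by DESeq2, with a median of 0.73 beside -0.02, and 7 had an unadjusted p below 0.05, beside 13.6% of all genes. Mogat1 was at 3.58 ± 0.73 there (adjusted p = 0.0515). Averaged over genotypes edgeR called 8 of 14 higher and none lower (median 1.04), beside 7.19% of all genes called. DESeq2 also called Fabp5, which was lower on HFD (-0.92 ± 0.27, adjusted p = 0.0707 in edgeR). With the 3 muscle-bearing libraries left out, edgeR called 4 of 14 higher and 1 lower in Mlkl-/- livers, beside 0.475% of all genes, and 4 higher and none lower in WT livers, beside 0.266%. In the genotype comparisons and the interaction edgeR called 0 of 14, while DESeq2 called Plin4 on HFD and Fabp5 on ND. An unadjusted p below 0.05 was found for 6 on HFD, 1 on ND and 0 in the interaction, beside 15.5%, 5.51% and 10.4% of all genes.

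The other adipocyte genes that edgeR called are also on the target list. Of 16 listed, 13 were tested, and 2 rose with HFD in WT livers, beside 4.23% of all genes called. These were Aqp7 and Plin4 (1.47 ± 0.34, adjusted p = 0.0409, edgeR), both also on the target list. Averaged over genotypes 3 of 13 rose (Aqp7, Cidec and Plin4), beside 7.19% of all genes called. In Mlkl-/- livers edgeR called 0 of 13 and DESeq2 2, and 3 had an unadjusted p below 0.05, beside 13.6% of all genes. The 2 were Cidec and Slc2a4, which had 8, 74 and 19 counts in Mlkl-/- HFD, 74 of them in the muscle-bearing replicate 2. Such a p was found for 8 of 13 for diet in WT livers, beside 20.5% of all genes. Between genotypes it was found for 7 on HFD and 2 on ND, beside 15.5% and 5.51%. Lep was at 1.81 ± 1.24 in Mlkl-/- livers (adjusted p = 0.505) and 2.61 ± 0.89 in WT livers (0.105). Lgals12, a galectin of adipocytes, had 1, 3 and 1 counts in Mlkl-/- HFD, 0, 5 and 6 counts in WT HFD and none in any ND library. The summed level of the 16 genes says little about adipocytes, since Pck1, which hepatocytes make, was 66.4% to 95.5% of it.

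No partner of the receptor was called. Of 19 genes for PPARs, RXRs, C/EBPs and their cofactors, 0 were called in any of the 6 comparisons by edgeR, DESeq2 or limma-voom, with 2 to 5 at an unadjusted p below 0.05 in each comparison but the interaction, which had 1. Of all genes 5.51% (genotype on ND) to 22.0% (diet averaged) were at such a p. The partner Rxra was at 0.06 ± 0.16 for diet in Mlkl-/- livers (adjusted p = 0.906) and 0.01 ± 0.16 in WT livers (0.974). Apart from Lipe, 3 of 16 other lipolysis genes rose with HFD in WT livers and none fell, beside 4.23% of all genes called. These were the kinase subunit Prkar2b by 1.84 ± 0.43 (adjusted p = 0.0305, edgeR), lysosomal lipase Lipa by 0.83 ± 0.16 (0.0140) and the droplet coat Plin3 by 0.63 ± 0.16 (0.0346). In Mlkl-/- livers edgeR called 0 of the 16 and DESeq2 2, with 5 at an unadjusted p below 0.05, beside 13.6% of all genes. Averaged over genotypes 5 rose, beside 7.19% of all genes called, among them the triglyceride lipase Pnpla2 by 0.46 ± 0.12 (0.0375) and the monoglyceride lipase Mgll by 0.64 ± 0.18 (0.0470).

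Relatives of the other members were mixed. Of the 4 tested relatives of Fabp4, the intestinal type carrier Fabp2 rose with HFD in Mlkl-/- livers by 1.68 ± 0.17 (adjusted p = 0.000832, edgeR) and in WT livers by 1.16 ± 0.17 (0.00538). In the alternative complement pathway, which Cfd starts by cutting factor B, Cfi and Cfb fell with HFD averaged over genotypes. The protease Cfi was at -0.52 ± 0.13 (adjusted p = 0.0237) and factor B (Cfb) at -0.33 ± 0.09 (0.0390). No adipokine receptor of 6 was called in any comparison by edgeR, DESeq2 or limma-voom. At most 2 were at an unadjusted p below 0.05, for diet in WT livers, beside 20.5% of all genes. Adipor2, the main adiponectin receptor of liver, was at 0.21 ± 0.17 in Mlkl-/- and 0.24 ± 0.17 in WT livers for diet. None of the 3 other resistin-like genes passed the filter.

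By likeness over all 12 libraries, Pearson's r of log2 CPM among 15273 genes, the named genes most like Pparg were the galectin Lgals1 (0.98), Slc44a3 (0.96), the nucleotidase Entpd5 (0.95), Plin4 (0.95) and the collagen chaperone Serpinh1 (0.94). In likeness to Pparg, Cidec ranked 17th, Lipe 915th, Cfd 1868th, Plin1 2490th, Adipoq 2495th, Fabp4 3232nd and Retn 3325th. The genes of the target list were spread widely, from Plin4 (4th) to Acp5 (6221st), Lpl (8362nd), Angptl4 (14348th) and Fabp5 (14543rd). The genes compared had a mean of at least 1 CPM or were members, so other genes at the low level of Adipoq were not compared. Among the members, r with Adipoq was 0.93 for Plin1, 0.89 for Retn and 0.80 for Cfd. The named non-members most like Adipoq were Top3a (0.86), Faap100 (0.83), Ube2z (0.82), Bcr (0.82) and Sfxn5 (0.81). These r span both diets, so a diet difference shared by 2 genes raises them, and they are given as a description.

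Among markers of other cell types, some macrophage genes rose with HFD in WT livers. Of 15 macrophage markers 4 were called there, among them Gpnmb by 4.14 ± 0.79 (adjusted p = 0.0153, edgeR), beside 4.23% of all genes. In Mlkl-/- livers 0 of 15 were called by edgeR, DESeq2 or limma-voom, with 2 at an unadjusted p below 0.05, beside 13.6% of all genes. In the interaction edgeR and limma-voom called 0 of 15 and DESeq2 1, with 12 at an unadjusted p below 0.05, beside 10.4% of all genes. In the genotype comparison on HFD edgeR and limma-voom called 0 of 15 and DESeq2 8, with 12 at an unadjusted p below 0.05, beside 15.5% of all genes. The sinusoidal endothelial gene Dnase1l3 was the 1 of 11 endothelial markers called by edgeR. It was higher on HFD in WT livers (0.60 ± 0.15, 0.0359), beside 4.23% of all genes called. It was lower in Mlkl-/- than in WT livers on HFD (-1.17 ± 0.15, 0.0166), beside 0.0276% of all genes, and DESeq2 called 6 of 11 there. DESeq2 also called Stab2 for diet in Mlkl-/- livers, and Dnase1l3 and Stab2 in the interaction. Of 10 hepatocyte markers Serpina1a fell with HFD in WT livers (-1.22 ± 0.22, 0.0125), and 3 were called averaged over genotypes, 2 of them lower, beside 7.19% of all genes called. No stromal, neutrophil or pancreas marker was called in any comparison by edgeR, and DESeq2 called 1, the mesothelial Upk3b. Up to 3 of a list were at an unadjusted p below 0.05, beside 5.51% to 22.0% of all genes over the comparisons.

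The levels of these lists were set beside the adipocyte markers. Summed stromal and mesothelial markers (12 genes) were at 113 to 134 CPM in Mlkl-/- HFD, 151 to 251 in WT HFD, 132 to 172 in Mlkl-/- ND and 140 to 171 in WT ND. Summed exocrine pancreas markers (9 genes) were at 9.44 to 15.7 CPM in Mlkl-/- HFD, 7.47 to 8.24 in WT HFD, 11.2 to 14.3 in Mlkl-/- ND and 7.96 to 13.9 in WT ND, mostly from Cela1. Summed neutrophil markers (7 genes) stayed between 1.13 and 6.40 CPM in all libraries. Ucp1, the brown fat uncoupler added after the values were seen, had 1, 2 and 11 counts in WT HFD and none in the other 9 libraries. The brown fat genes added with it ran otherwise. Cox8b had 0, 17 and 2 counts in Mlkl-/- HFD, 0, 1 and 1 in WT HFD, and 0 to 3 in the ND libraries. Cox7a1 had 9, 35 and 11 counts in Mlkl-/- HFD, 16, 29 and 12 in WT HFD, and 6 to 24 in the ND libraries. Of the 4 libraries high in Adipoq, 3 carried muscle transcripts above 5 CPM and Mlkl-/- HFD replicate 3 did not, at 3.67 CPM. The part of other tissue in the levels of Adipoq, Cfd, Plin1 and Retn was not tested.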

How the data were processed

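Per the labels' protocols, total liver RNA was extracted with Trizol and RNeasy columns, and 3′ mRNA libraries were made with the Lexogen QuantSeq kit and read on an Illumina NextSeq. Per the submitters' processing notes, the tools were cutadapt 1.9, HISAT2, featureCounts and limma on mm10. For annotation, strand and multiply mapped reads the settings were not given in the sources used here. A table of raw read counts for each Ensembl gene was deposited, without normalization by the authors. Groups came from the genotype and diet labels, and each title names its own animal.

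The counts were filtered with filterByExpr (minimum count 10, minimum total 15), scaled by TMM and tested in edgeR 4.0.16 (R 4.3.3) with robust glmQLFit and glmQLFTest, 1 mean per group over all 12 libraries and Benjamini-Hochberg adjustment over 18098 genes. DESeq2 1.42.0 and limma-voom 3.58.1 were alternatives. The fit was first run on simulated data for the diet comparison in WT livers, with changed genes, and the genotype comparison on ND, with none. The other comparisons were not simulated. Correlations used log2 CPM with a prior count of 2 and exact permutation of 720 orders. Intervals are exact (Clopper-Pearson) at 95% and, like floors of 3 counts, cover counting error only. No 2 libraries of a group were copies (chi-square per degree of freedom from 18.7 to 131). Positions came from GENCODE M21 and start-site windows from RefSeq.

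The members and the 15 gene lists were chosen with earlier results of these data known, and the relations of Pparg with its targets, those of Adipoq, the muscle and brown fat genes and the fit without 3 libraries were chosen after the values were seen. Named genes were all 7 members, up to 3 called genes of each other list by size of change (or its most abundant gene), the 5 genes most like Pparg and Adipoq, genes sharing exons with a member, and Mlkl; genes outside this rule, such as Lep, Lgals12, Cidec, Ucp1, Ckm, Upk3b and Fabp5, were chosen after their values were seen. The count of called genes in the complement list is not reported here.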

Additional observations from a re-analysis of the deposited data

How the results depend on the processing

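No paired analysis was possible because the replicate numbers were given in accession order and pair no animals. Changing the processing moved mainly how many members passed. In Mlkl-/- livers the diet comparison called 0 members, in place of 1, with limma-voom, with only the groups compared (where Adipoq, Plin1 and Retn failed the filter), after adding the title code to the fit and after adding the 8-locus level. In WT livers it called 1 in place of 2 with no filter, without robust estimation and with the title code, 4 with DESeq2, 0 with the 8-locus level and 0 without the 3 muscle-bearing libraries, a fit chosen after seeing the data. Averaged over genotypes it called 0 in place of 3 with the 8-locus level, 1 without the 3 libraries, 2 with limma-voom, 2 with no filter and 4 with DESeq2. DESeq2 called 2 in place of 0 between genotypes on HFD and 1 in place of 0 in the interaction. Leaving out each library in turn gave 0 to 1 in Mlkl-/- livers, 0 to 3 in WT livers, 1 to 4 averaged, and 0 to 0 in the other 3 comparisons.

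Some log2 fold changes turned. With the 8-locus level, Cfd was at -1.91, Plin1 at -0.67 and Retn at -3.93 for diet in WT livers, and Cfd at -0.11 and Fabp4 at -0.40 on average. Without the 3 muscle-bearing libraries, Adipoq was at -1.92, Cfd at -2.65 and Plin1 at -2.63 for diet in WT livers, Plin1 at -0.62 and Fabp4 at -0.13 on average, and Adipoq at 2.49, Cfd at 2.94, Lipe at 0.25 and Plin1 at 1.52 between genotypes on HFD. The Adipoq interaction, -0.04, was 0.04 with DESeq2, 0.74 with limma-voom, 1.24 with the title code, 0.72 with the 8-locus level and 4.11 without the 3 libraries. The Lipe interaction, 0.01, was -0.08 with library size only and -0.11 with the title code. Leaving out 1 library took the interaction from -0.60 to 0.99 for Adipoq, -0.15 to 0.27 for Lipe and -0.55 to 1.10 for Plin1, Fabp4 on average from -0.04 to 0.31, and the genotype difference on HFD from -0.35 to 0.05 for Lipe and -1.40 to 0.32 for Retn. The cause was not tested.

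The r of Pparg within HFD was -0.09 for Adipoq, -0.11 for Cfd, -0.07 for Lipe and -0.06 for Retn without the 2 libraries farthest from the Pparg median, and -0.01 for Retn at a prior count of 0.5. Within ND, without such a pair of libraries, it was -0.13 for Adipoq, -0.65 for Lipe, -0.04 for Plin1 and -0.24 for Retn. Leaving out 1 library took r within HFD from -0.26 to 0.60 for Adipoq, -0.28 to 0.36 for Cfd, -0.18 to 0.39 for Lipe, -0.18 to 0.53 for Plin1 and -0.19 to 0.31 for Retn. Within ND it took r from -0.02 to 0.42 for Adipoq and -0.78 to 0.11 for Fabp4. Over 6 HFD against 6 ND libraries Pparg had an exact permutation p of 0.0455 on raw CPM (difference 1.10), and Adipoq 0.0519 at a prior count of 0.5 (2.15). Scaling by library size alone shifted the median of all genes to 0.19 for diet in WT livers and -0.15 between genotypes on HFD. Over the alternatives other than leaving out 1 library, the diet comparisons called 8 to 514 genes of all tested in Mlkl-/- livers (65 as reported), 51 to 1465 in WT livers (766) and 122 to 1980 on average (1302), and the genotype comparisons 0 to 398 on HFD (5), 0 to 49 on ND (1) and 0 to 58 in the interaction (0). Leaving out 1 library gave 13 to 729, 63 to 1233 and 616 to 2029 genes in the 3 diet comparisons in the same order, and 0 to 189 on HFD, 0 to 6 on ND and 0 to 4 in the interaction. Depth limits Adipoq, Plin1 and Retn most, since 1 to 5 counts stood behind many of their values.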

Other observations

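Fabp3, the muscle-type fatty acid carrier and a relative of Fabp4, had 3, 284 and 1 counts in Mlkl-/- HFD, 2, 10 and 10 counts in WT HFD, 1, 1 and 1 counts in Mlkl-/- ND, and 0, 2 and 4 counts in WT ND. Its 1 high library, Mlkl-/- HFD replicate 2, is the library with 533 CPM of summed muscle genes, among them the myosin Myh4 at 1374 counts against 0 to 11 counts elsewhere, myoglobin (Mb) at 909 counts against 0 to 19 and skeletal actin (Acta1) at 1536 counts against 34 to 111. The same library had 1.15 CPM of Adipoq, 4.67 CPM of Pparg and 9.48 CPM of Cidec. The part of muscle tissue in its other values was not tested.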
